A study of Homo sapiens with 4 samples.

Results

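The genes described here are 10 core parts of the switch that lets a cell leave the G1 phase: the D cyclin genes CCND1 and CCND3, the kinase genes CDK4 and CDK6, the kinase inhibitor genes CDKN1B and CDKN2C, the pocket protein genes RB1, RBL1 and RBL2, and the transcription factor gene E2F1. They were chosen by symbol, through the RefSeq accessions of the deposited rows, and all 10 were found among the 22985 named genes of the series. Total RNA of LNCaP and C4-2 cells, depleted of ribosomal RNA, was sequenced in 2 libraries a line. LNCaP is a human prostate cancer line started from a lymph node metastasis and is labelled as primary cancer here. C4-2 was derived from LNCaP by passage in castrated mice and is labelled as castration-resistant. Both lines carry no further treatment and were grown in RPMI medium with charcoal-stripped serum, which is depleted of steroids. Each line is a single established line, and the labels do not say whether its libraries came from separate cultures, so that p-values measure the spread between these libraries only.

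Each deposited table bears the name of the line that its sample title does not give. Groups follow the titles, the libraries are called by their labels throughout, and every direction given here would turn round if the names of the tables were right.

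As background, D cyclins bind CDK4 or CDK6, and the active kinase phosphorylates the pocket proteins encoded by RB1, RBL1 and RBL2. Pocket proteins without phosphate hold E2F factors in check, and once they let go, E2F factors switch on genes for DNA replication. Inhibitors of the INK4 family, such as the CDKN2C product, bind the kinase itself, whereas p27, the CDKN1B product, binds cyclin-kinase complexes. In prostate cells the androgen receptor drives this switch, in part through D cyclins.

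Sense tags in named genes came to 58.9 to 70.5 M (M, mega) in the LNCaP-labelled libraries and 119.1 to 163.1 M in the C4-2-labelled ones. The authors' RPKM values divide by a larger total, of which these tags were 31.03% to 35.65% in the former and 67.67% to 69.43% in the latter, so that exon tags as a share of all tags moved with the line. Of 9 luminal prostate markers all had at least 735 tags in each library. Their deposited RPKM values were higher in the C4-2-labelled libraries for all but KLK2 and KLK3, which stood at 27.3 to 33.0 and 88.5 to 104.7 in the LNCaP-labelled ones and at 4.27 to 4.54 and 2.15 to 2.25 in the C4-2-labelled ones. Relative to the typical gene, by edgeR's quasi-likelihood test, 6 of the 9 were higher and 3 lower, since FOLH1 turned to -0.20 ± 0.030 on the log2 scale (adjusted p = 0.000301). Of 15 basal, fibroblast, immune and endothelial markers none exceeded 0.539 RPKM in any library, and COL1A2 and CD3E had 0 tags throughout.

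Relative to the typical gene, both D cyclin genes, CDK4 and E2F1 were about double in the C4-2-labelled libraries or more, RBL1 and RB1 were higher by less, and CDKN1B and RBL2 were lower, a direction that turns round when tags are scaled by library totals. By edgeR's quasi-likelihood test with Benjamini-Hochberg adjustment over all genes, 6 of the 10 rose, 2 fell and 2 (CDK6 and CDKN2C) did not pass. The 2 lines differ so widely that such calls are common: 80.0% of the 15975 genes tested were called, 40.2% as higher and 39.7% as lower. The count of 8 called among 10 is thus that of the background, and what the members show lies in the sizes and directions of single genes. Of the members 3 rose at least 2-fold (CCND1, CCND3 and E2F1), as did 11.7% of all genes, and none fell at least 2-fold, as did 18.1%. The lines did not overlap for 9 of the 10, as for 89.9% of all genes. Their median log2 fold change was 0.46, against -0.01 for all genes tested.

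**Figure D1:**
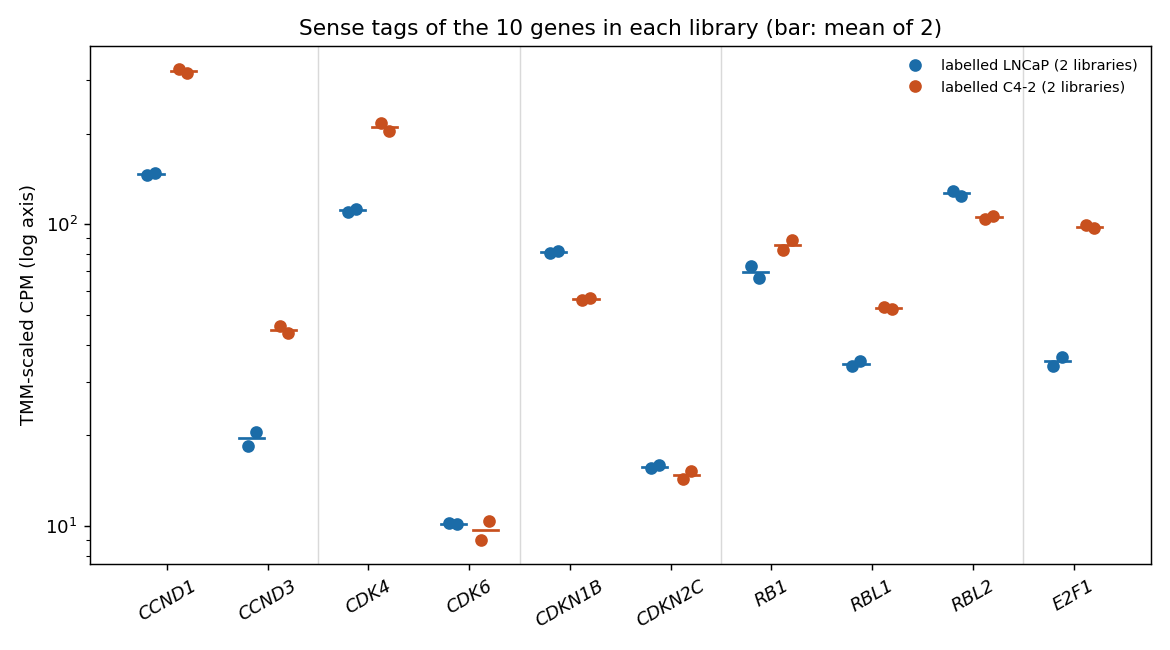
TMM-scaled CPM of sense tags (counts at a common library size, log axis) of the 10 genes, with a point for each library and a bar for the mean of 2. The lines do not overlap for any gene but CDK6, and E2F1 shows the widest gap, 34.1 and 36.3 against 99.2 and 97.5 CPM.

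CCND1, the gene for cyclin D1 and the most abundant of the 10 by tags (hg19 chromosome 11, 69455873 to 69469242, plus strand), had 146 and 149 CPM (tag counts scaled to a common library size) in the LNCaP-labelled libraries and 326 and 317 in the C4-2-labelled ones. Both libraries of the latter lay above both of the former. The log2 fold change was 1.12 ± 0.042 (SE, adjusted p = 1.41e-07), a 2.18-fold difference. CCND3, which encodes cyclin D3 (chromosome 6, 41902671 to 41909552, minus strand), had 18.5 and 20.6 CPM against 46.0 and 43.6, again without overlap, and a log2 fold change of 1.19 ± 0.067 (adjusted p = 1.04e-06). The 2 D cyclin genes thus rose by like amounts from levels far apart. Per exon length, CCND1 tags outnumbered those of CCND3 by 3.78 and 3.45 to 1 in the LNCaP-labelled libraries and by 3.39 and 3.48 to 1 in the C4-2-labelled ones, ranges that overlap. CCND2, the remaining D cyclin gene, named after its values were seen, was near silent, at 0.266 and 0.170 CPM in the LNCaP-labelled libraries and 0.0685 and 0.102 in the C4-2-labelled ones.

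Of the partner kinases only CDK4 passed the test. CDK4 (chromosome 12, 58141510 to 58146230, minus strand) had 110 and 113 CPM in the LNCaP-labelled libraries and 217 and 204 in the C4-2-labelled ones, a log2 fold change of 0.92 ± 0.048 (adjusted p = 6.86e-07). CDK6 (chromosome 7, 92234235 to 92463231, minus strand), which encodes the sister kinase, had 10.3 and 10.2 CPM against 8.98 and 10.4. Its values overlapped between the lines, with a log2 fold change of -0.08 ± 0.091 (adjusted p = 0.447). CDK4 was the dominant kinase mRNA in every library, and more so in the C4-2-labelled ones. Per exon length its tags exceeded those of CDK6 by 62.3 and 64.4 to 1 in the LNCaP-labelled libraries and by 140 and 114 to 1 in the C4-2-labelled ones. Of the 10 genes, CDK4 carried the most opposite-strand tags in each library, and its end overlaps TSPAN31 there by 517 bases. Over CDK4 as a whole, opposite-strand tags came to 415 and 474 in the LNCaP-labelled libraries and 637 and 512 in the C4-2-labelled ones. These were 5.90%, 5.61%, 1.80% and 2.08% of its tags on both strands. The counts do not show where within the gene these tags lie. RBL2, whose end overlaps AKTIP, came next with 172 and 196 against 393 and 282, or 2.16% to 2.29%.

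The 2 inhibitor genes did not move with the cyclins. CDKN1B (chromosome 12, 12870302 to 12875305, plus strand) had 80.5 and 82.0 CPM in the LNCaP-labelled libraries and 56.4 and 57.2 in the C4-2-labelled ones. The groups did not overlap, and the log2 fold change was -0.52 ± 0.042 (adjusted p = 8.54e-06), a 1.43-fold lower level. Scaled by library totals its log2 fold change was 0.49. CDKN2C, which encodes p18 (chromosome 1, 51434367 to 51440306, plus strand), had 15.6 and 16.0 CPM against 14.4 and 15.2. These groups did not overlap either, but the log2 fold change of -0.10 ± 0.066 did not pass (adjusted p = 0.211).

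Balances between cyclin, kinase and inhibitor within a library do not depend on how libraries are scaled. Tags of CCND1 per exon length about equalled those of CDKN1B in the LNCaP-labelled libraries, at a ratio of 1.02 in both, and stood at 3.25 and 3.12 to 1 in the C4-2-labelled ones. The ratio of CDK4 to CDKN1B went from 1.65 and 1.66 to 4.63 and 4.30, and that of CDK4 to CDKN2C from 7.36 and 7.37 to 15.7 and 14.0. All 3 ratios were thus higher in each C4-2-labelled library than in either LNCaP-labelled one. The ratio of CDK6 to CDKN2C overlapped between the lines, at 0.118 and 0.114 against 0.112 and 0.123. With 2 libraries against 2, an exact permutation test (two-sided) cannot give a p under 0.333, so the ratios are a description.

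**Figure D2:**
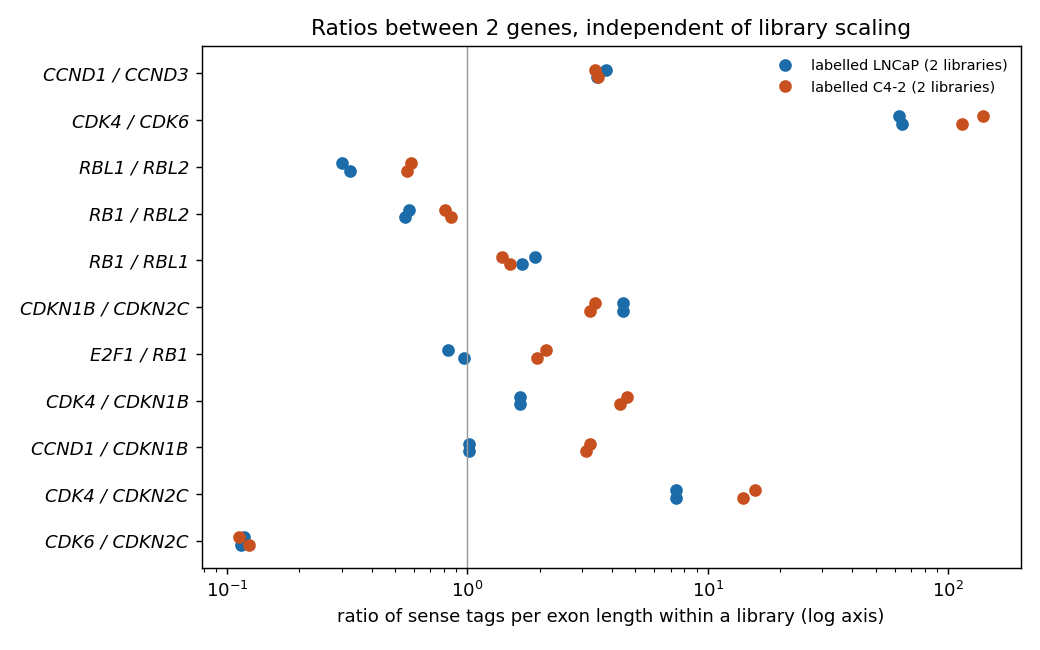
Ratio of sense tags per exon length between 2 genes within a library (log axis), a point for each library. CDK4 to CDK6, CDK4 to CDKN1B and CCND1 to CDKN1B lie further right in both C4-2-labelled libraries, whereas CCND1 to CCND3 and CDK6 to CDKN2C overlap.

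The pocket protein genes parted from each other. RBL1, which encodes p107 (chromosome 20, 35626178 to 35724410, minus strand), had 34.0 and 35.2 CPM in the LNCaP-labelled libraries and 53.1 and 52.5 in the C4-2-labelled ones, a log2 fold change of 0.61 ± 0.051 (adjusted p = 1.02e-05). RB1, the retinoblastoma gene itself (chromosome 13, 48877883 to 49056026, plus strand), had 72.6 and 66.4 CPM against 82.5 and 88.8, with 0.30 ± 0.058 (adjusted p = 0.00152). With upper quartile scaling RB1 lost its call (0.14, adjusted p = 0.0578, from 1.59e-26 to 0.0578 over its 15 other settings). RBL2, which encodes p130, a pocket protein known from resting cells (chromosome 16, 53468351 to 53525560, plus strand), went the other way, with 129 and 124 CPM against 104 and 107 and a log2 fold change of -0.26 ± 0.042 (adjusted p = 0.000512), or 0.745 on the log2 scale when scaled by library totals. No pocket protein gene had overlapping values between the lines. Per exon length, RBL1 tags were 0.301 and 0.325 of those of RBL2 in the LNCaP-labelled libraries and 0.582 and 0.562 in the C4-2-labelled ones. RB1 tags were 0.574 and 0.548 of those of RBL2 in the former and 0.809 and 0.851 in the latter.

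E2F1 (chromosome 20, 32263292 to 32274210, minus strand), the activating factor that RB1 protein holds in check, had the highest fold change of the 10. It stood at 34.1 and 36.3 CPM in the LNCaP-labelled libraries and at 99.2 and 97.5 in the C4-2-labelled ones, a log2 fold change of 1.48 ± 0.049 (adjusted p = 8.37e-08), or 2.79-fold. Of all genes tested 94.9% had a lower fold change. Per exon length, E2F1 tags were 0.830 and 0.967 of those of RB1 in the LNCaP-labelled libraries and 2.13 and 1.94 times as many in the C4-2-labelled ones, so the order of the 2 genes turned round.

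E2F1 and RBL1 are textbook E2F targets, and their promoters are printed with that of RBL2, the closest relative of RBL1. E2F1 and RBL1 rose, whereas RBL2 fell relative to the typical gene, though not per library total. The genes to print were picked with these directions known, so their letters are no evidence on the directions. RefSeq windows of 250 bases before to 50 after a start (GRCh38.p14) were searched on both strands for the E2F letters TTTCGCGC, TTTGGCGC and TTTCCCGC, none of which contains another. The 120 bases before the start are printed 5′ to 3′ on the strand of the gene, with matches in capitals. They lie at chr20:37095998-37096117 (minus strand) for RBL1, chr20:33686386-33686505 (minus strand) for E2F1 and chr16:53434351-53434470 (plus strand) for RBL2.
RBL1: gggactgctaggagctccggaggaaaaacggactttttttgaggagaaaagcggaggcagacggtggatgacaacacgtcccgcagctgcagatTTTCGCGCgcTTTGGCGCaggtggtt
E2F1: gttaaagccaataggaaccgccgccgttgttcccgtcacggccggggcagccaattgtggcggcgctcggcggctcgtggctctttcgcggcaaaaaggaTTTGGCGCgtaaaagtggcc
RBL2: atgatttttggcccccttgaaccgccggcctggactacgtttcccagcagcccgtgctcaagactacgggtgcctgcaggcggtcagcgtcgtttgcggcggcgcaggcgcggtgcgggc

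The RBL1 window held TTTCGCGC from 26 to 19 bases and TTTGGCGC from 16 to 9 bases before the start, and the E2F1 window held TTTGGCGC from 20 to 13 bases before it. The windows of CCND3, CDK4, CDK6, CDKN1B, CDKN2C and RBL2 held none of the 3. Of these genes, CCND3 and CDK4 rose by more than RBL1 (log2 fold changes of 1.19 and 0.92 against 0.61). Whether a match goes with the direction of a gene was not tested. CCND1 and RB1 are named only: no window was at hand for CCND1, and the RB1 window used here lies 172699 bases inside the gene. The starts of CCND1 and RB1 were thus not searched. Among all 35116 windows 0.515% held TTTCGCGC, 0.652% TTTGGCGC and 1.63% TTTCCCGC, or 2.74% any of them. By gene, counting those with a window within 2000 bases of the RefSeq gene start, a limit set after the windows were seen, 2 of 8 members and 5.45% of 11440 tested genes held a match. Only these exact letters were searched, so a near match, such as tttcgcgg in the printed E2F1 bases, was not counted. A match describes letters and not a bound site.

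Levels between genes were compared by deposited RPKM, which divides by exon length. In the LNCaP-labelled libraries the order of means was CDK4 (18.8 ± 1.94, SD, n = 2), CCND1 (11.6 ± 1.14), CDKN1B (11.4 ± 1.14), RBL2 (8.74 ± 0.506), RB1 (4.90 ± 0.117), E2F1 (4.41 ± 0.580), CCND3 (3.23 ± 0.523), RBL1 (2.74 ± 0.309), CDKN2C (2.55 ± 0.262) and CDK6 (0.297 ± 0.0233). Neighbours whose libraries overlapped were CCND1 and CDKN1B, RB1 and E2F1, CCND3 and RBL1, and RBL1 and CDKN2C. Each of these pairs kept the order of its means within both libraries. For the C4-2-labelled libraries it was CDK4 (71.2 ± 1.41), CCND1 (50.8 ± 0.124), E2F1 (24.7 ± 0.238), CDKN1B (15.9 ± 0.518), CCND3 (14.8 ± 0.226), RBL2 (14.6 ± 0.575), RB1 (12.2 ± 0.905), RBL1 (8.37 ± 0.120), CDKN2C (4.799 ± 0.305) and CDK6 (0.566 ± 0.0714). There the sole overlapping neighbours were CCND3 and RBL2, whose order differed between the libraries. E2F1 moved from the sixth to the third place and CCND3 from the seventh to the fifth, while CDK4, CCND1, RBL1, CDKN2C and CDK6 held theirs.

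**Figure D3:**
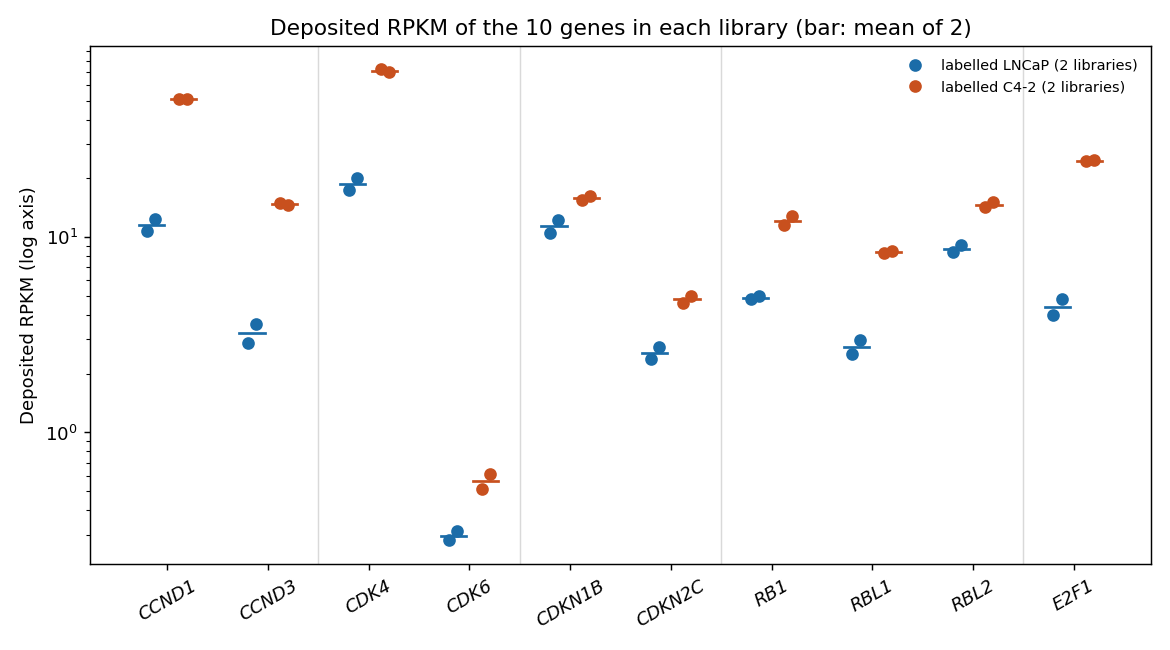
Deposited RPKM of the 10 genes (log axis), with a point for each library and a bar for the mean of 2. CDK4 is highest and CDK6 lowest in both lines, and every gene lies higher in the C4-2-labelled libraries on this scale.

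On the RPKM scale all 10 genes were higher in the C4-2-labelled libraries, from 1.40-fold for CDKN1B to 5.60-fold for E2F1. Scaling tags by those totals moved the median of all genes up by 1.004 on the log2 scale, and with it all 10 members were called higher. Thus CDKN1B stood at 0.49, RBL2 at 0.745, CDKN2C at 0.91 and CDK6 at 0.93 on that scale, each below the median of 0.99 for all genes. The directions of CDKN1B and RBL2 given above therefore hold relative to the typical gene and turn round per library total. The share of exon tags in the library total moved with the line, as given above, and its part in these results was not tested. The 6 members called higher kept that direction under each scaling tried.

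**Figure D4:**
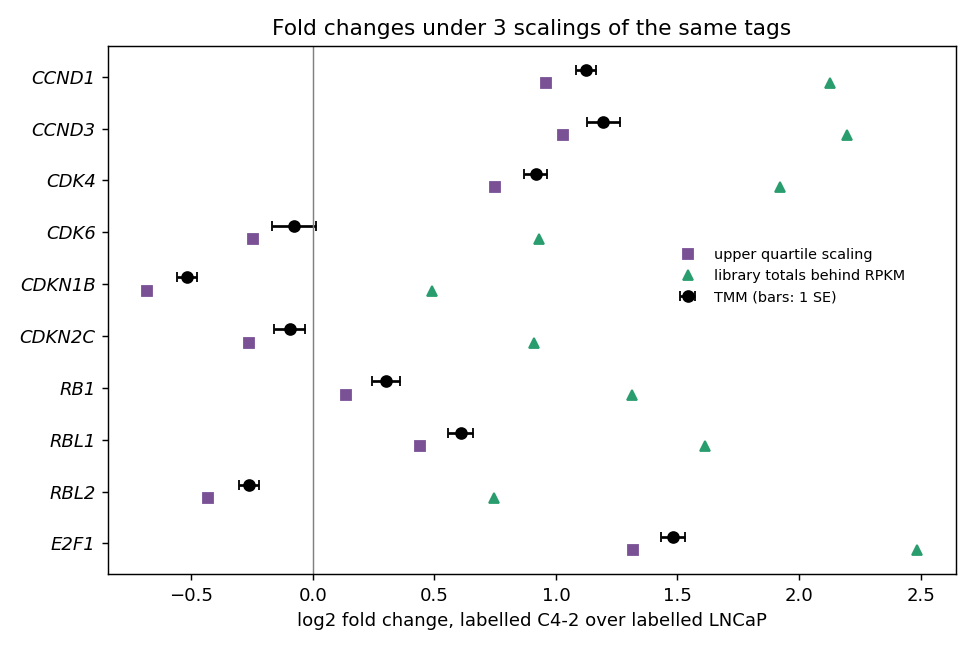
Log2 fold change of the 10 genes, labelled C4-2 over labelled LNCaP, with TMM (bars, 1 SE), upper quartile scaling and the library totals behind RPKM. CDKN1B, RBL2, CDKN2C and CDK6 lie left of 0 with TMM and right of 0 with library totals, whereas E2F1, CCND1, CCND3, CDK4, RBL1 and RB1 lie right of 0 throughout.

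The 10 genes have 16 deposited transcripts, and 6 genes have 1 each. Transcripts of a gene share most of their tags, so their values are not independent. Of CCND3, 2 transcripts start farther upstream than the kept one. The longer of them held 95.8% and 96.2% of the tags of the kept one in the LNCaP-labelled libraries and 94.1% and 93.9% in the C4-2-labelled ones, and the other 87.1% and 86.3% against 82.0% and 82.7%. The remaining CCND3 transcript, with the start of the kept one, held 91.3% and 90.1% against 87.9% and 88.8%. Of CDKN2C, the shorter transcript held 66.4% and 64.8% against 63.5% and 62.0%. The RBL1 transcript with the earlier end held 85.0% and 85.1% against 83.8% and 84.2%, and the second CDK6 transcript 99.4% or more.

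Around these genes, 8 lists of pathway genes were followed in the same fit. Since 80.0% of all genes were called, the counts are given beside 40.2% higher and 39.7% lower over all genes. All 17 E2F target genes of DNA replication were higher in the C4-2-labelled libraries, with a median log2 fold change of 1.04 and a range from 0.25 to 2.10. MCM6 and MCM4, subunits of the replicative helicase, had 65.3 ± 0.396 and 129.5 ± 2.97 CPM (SD, n = 2) in the LNCaP-labelled libraries and 280.7 ± 7.77 and 483 ± 5.35 (SD, n = 2) in the C4-2-labelled ones. CDC6, which loads that helicase, stood at 1.35 ± 0.042 (SE, adjusted p = 6.45e-08) on the log2 scale. With upper quartile scaling 15 of the 17 were called higher, and with each other setting all 17.

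Against these, all 6 markers of G2 and mitosis were lower, with a median of -1.07. CCNB1, the mitotic cyclin gene, had 378 and 384 CPM in the LNCaP-labelled libraries and 107 and 109 in the C4-2-labelled ones (-1.82 ± 0.042, adjusted p = 1.58e-08). The mitotic kinase gene AURKA stood at -1.46 ± 0.053 and the topoisomerase gene TOP2A at -1.09 ± 0.048. Per library total, 2 of the 6 were lower, 1 was higher, TOP2A was not called (-0.08) and the median was -0.06, so that this fall holds relative to the typical gene. In bulk RNA, fewer cells in a phase and less RNA per cell cannot be told apart.

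The other cyclins and kinases of G1 and S phase were split, with 5 higher and 4 lower of 9 tested (median 0.12), and CCNA1 had 0 tags in all 4 libraries. The list holds the D cyclin gene CCND2, the genes CDK7, CCNH and MNAT1 of the kinase that activates CDK4 and other CDKs, and genes that act after CDK4. The 4 lower ones were CCND2, CDK7, MNAT1 and CCNA2, of which CCNA2 alone acts after CDK4. CCND2 was near silent, as given above. The smallest of the 5 rises was that of CCNE2, named after its values were seen (0.12 ± 0.047, adjusted p = 0.049). The count of higher genes was 4 with DESeq2, with upper quartile scaling and with some other settings. CDC25A, a phosphatase that activates CDK2, had 26.1 and 24.1 CPM against 105 and 103 (2.05 ± 0.053, adjusted p = 2.80e-08). CCNE1, which encodes the cyclin E that partners CDK2, stood at 1.35 ± 0.062, and CCNA2, the gene of the cyclin of S and G2 phases, at -0.95 ± 0.046. CCNA2 lost its fall per library total (0.06), where 7 of the 9 were called higher and none lower. The count of lower genes was 2 without C4-2 replicate 1 and also with no filter on low counts.

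Of 5 other inhibitor genes 2 were higher, 2 lower and 1 not called, with a median of 0.11. Per library total 3 of the 5 were called higher and none lower. CDKN1A, which encodes p21, had 25.8 and 27.6 CPM in the LNCaP-labelled libraries and 96.7 and 91.7 in the C4-2-labelled ones (1.82 ± 0.056, adjusted p = 6.34e-08). It thus moved against CDKN1B, whose product is of the same family, relative to the typical gene. With tags scaled by library totals both were higher (2.82 and 0.49). CDKN2A stood at 1.43 ± 0.117 from 1.73 and 1.75 CPM. CDKN1C, at -0.59 ± 0.191 (adjusted p = 0.0202), lost its call without LNCaP replicate 2 (-0.30), and the count of lower genes was 1 with any single library left out, with DESeq2 or with the stricter filter (a mean CPM of at least 1).

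Of the other E2F and DP genes 4 of 9 tested were higher, 1 lower and 4 not called (median 0.11), and TFDP3 had 0 to 5 tags. E2F2, an activating factor like E2F1, had 9.69 and 10.5 CPM against 24.2 and 23.6 (1.24 ± 0.067, adjusted p = 7.79e-07). The repressive factor gene E2F4 and the partner gene TFDP1 stood at 0.43 ± 0.053 and 0.38 ± 0.044. E2F1 and E2F2 were thus the 2 of the family with more than a 2-fold difference. The count of lower genes was 0 without C4-2 replicate 1, without C4-2 replicate 2 or without LNCaP replicate 1, and 2 without LNCaP replicate 2. With upper quartile scaling or the stricter filter it was 3, and per library total all 9 were higher. Of the MuvB complex, which joins RBL1 or RBL2 protein in a repressor of cell cycle genes, and its partners, 1 of 7 was higher and 3 were lower (median -0.05). FOXM1, which drives mitotic genes, fell by 0.61 on the log2 scale (SE 0.055, adjusted p = 1.58e-05), while LIN37 and LIN9 stood at -0.30 ± 0.091 and 0.19 ± 0.050. Without C4-2 replicate 2, LIN9 and LIN37 lost their calls (0.19 and -0.21), and the count of lower genes was 1. LIN9 also lost its call with upper quartile scaling (0.020, adjusted p = 0.732, from 5.12e-21 to 0.732 over its 15 other settings) and with the stricter filter (0.095, adjusted p = 0.137). With upper quartile scaling 5 of the 7 were lower, and per library total all 7 were higher.

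Of 13 ubiquitin ligase parts listed for D cyclins and p27, 8 were higher and 3 lower, with a median of 0.41. Whether each part acts on these proteins in the 2 lines was not tested. The 3 lower ones were small parts of SCF ligases: CKS1B, which helps SKP2 bind p27, had 106 and 109 CPM against 55.2 and 54.6 (-0.97 ± 0.041, adjusted p = 2.31e-07), and SKP1 and RBX1 stood at -0.92 ± 0.038 and -0.71 ± 0.046. SKP2 itself, named after its values were seen, was among the 8 higher ones (0.41 ± 0.046, adjusted p = 5.88e-05). Per library total 11 of the 13 were higher and none lower, with CKS1B and SKP1 at 0.032 and 0.088, and with upper quartile scaling 5 were lower. Of the transcription factors known to act on CCND1 or CDKN1B, 5 of 6 were higher (median 0.79) and none lower, though 1 was lower with upper quartile scaling, with the stricter filter or without LNCaP replicate 1. FOXO3, known to activate CDKN1B, had 59.4 and 57.8 CPM against 122 and 122 (1.06 ± 0.040, adjusted p = 1.51e-07). It thus moved against CDKN1B relative to the typical gene, but per library total both were higher (2.06 and 0.49). JUN had 28.7 and 29.6 CPM against 59.2 and 57.5, and MYC stood at 0.89 ± 0.049.

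**Figure D5:**
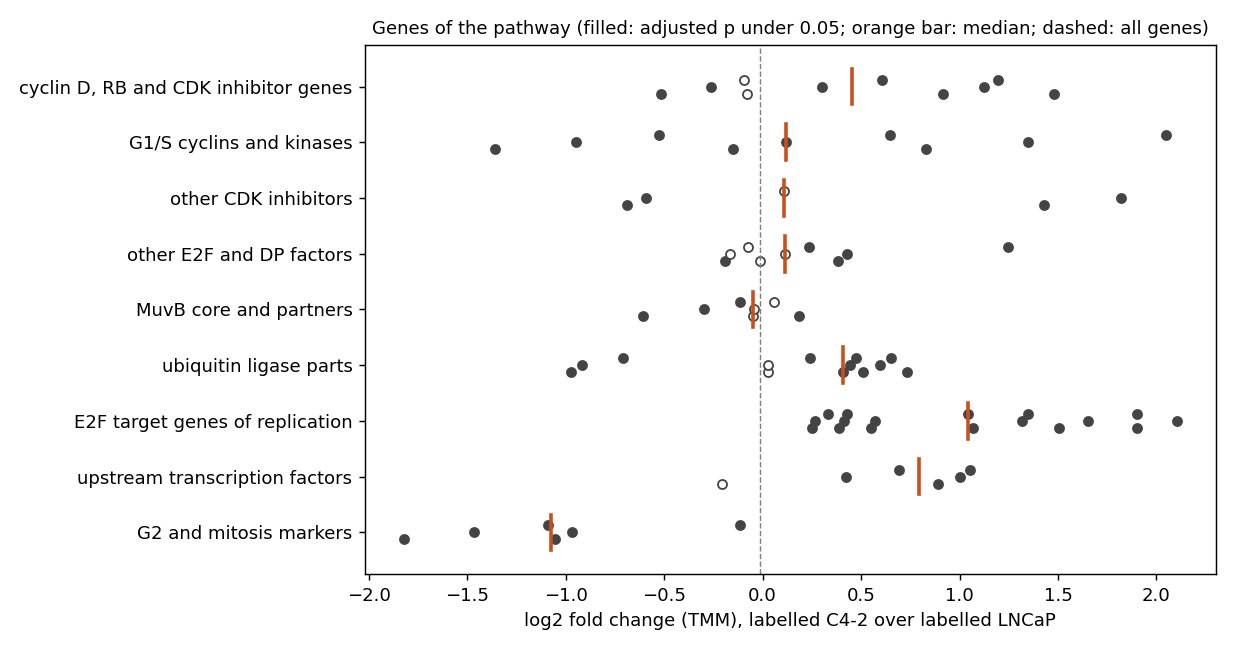
Log2 fold change (TMM) of each tested gene in the 10 cell cycle genes and the 8 lists, filled where adjusted p was under 0.05, with the list median (orange bar) and the median of all genes (dashed line). All 17 replication genes lie right of 0 and all 6 markers of G2 and mitosis left of it, while the 10 genes spread from -0.52 to 1.48.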

How the data were processed

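Total RNA libraries of LNCaP (2) and C4-2 (2) cells were grouped by sample title. Alignment was to hg19 and used TopHat2 (2.0.6) and Bowtie, per the submitters' processing notes. Per the file headers, the authors deposited a raw tag count and an RPKM value per strand for 41351 RefSeq transcript rows. For the counting tool and the annotation version: not given in the sources used here. The sense column was taken by gene strand. Symbols came from a RefSeq table of GRCh38.p14, used for names only (38974 of 40304 accessions), and unnamed rows (2.06% to 2.15% of sense tags) stayed out. Where a symbol had several transcripts, that with the largest mean share of tags was kept. Starts were counted from 1. Library totals behind RPKM were recovered from single-exon transcripts (171.51 to 241.07 M tags), and exon lengths from those.

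Counts were tested with edgeR 4.0.16 (R 4.3.3, filter on low counts, TMM, quasi-likelihood, no covariate) at an adjusted p under 0.05, after a check on simulated data. The simulated data had few changed genes, as many up as down, so that check did not test the scaling between these lines. Each fold change is C4-2 over LNCaP by label, and its SE is its size divided by the root of F. The other settings also used DESeq2 1.42.0 and limma 3.58.1. The 10 genes and the lists were chosen with earlier results of these data known, so their directions are not independent evidence. Named by rule were all 10 genes and up to 3 genes of each list by smallest adjusted p. Replicates differed by more than sampling noise (chi-square per degree of freedom 24.4 and 12.2).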

Additional observations from a re-analysis of the deposited data

How the results depend on the processing

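The 2 libraries a line limit what any test can show. Of 15 other settings, 12 kept the scaling of the main test or a near one. Under these 12, the calls and directions of CCND1, CCND3, CDK4, RBL1, RBL2, E2F1 and CDKN1B held, with ranges of 0.96 to 1.17, 1.03 to 1.28, 0.75 to 0.97, 0.44 to 0.65, -0.43 to -0.22, 1.32 to 1.53 and -0.68 to -0.47. RB1 lost its call with upper quartile scaling, which lowered the median of all genes to -0.18. There CDK6 and CDKN2C were called lower (-0.24 and -0.26), so that 4 members were called lower. CDKN2C was also called with the stricter filter of a mean CPM of at least 1 (-0.19). CDK6 turned to 0.036 without C4-2 replicate 1. Leaving out each library in turn gave 6 members higher and 2 lower each time, 5962 to 6574 genes higher and 5683 to 6196 lower over the table, and 39 to 43 higher and 13 to 19 lower in the pathway lists (main 6429, 6346, 42 and 19). There the lone library of a line is assumed to vary like the other line. The replicate block gave 6 members higher and 2 lower, and 6259 and 6141 genes over the table. Same-numbered libraries did not deviate together (correlation of -0.032). The labels do not say whether the numbers are a pairing, and this value cannot decide it.

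Scaling by the library totals behind RPKM called 11572 genes higher and 1756 lower, with 10 members higher and 0 lower and 2 pathway genes lower. Values of limma on log2(RPKM + 0.1) and log2(RPKM + 1) rest on the same totals: 11638 and 11605 genes were higher and 1816 and 1712 lower, with 10 members higher, 0 lower and 2 pathway genes lower in both. Reversed values under library totals and the smaller and larger pseudocount were, in this order, 0.93, 0.74 and 0.27 for CDK6; 0.745, 0.74 and 0.68 for RBL2; 0.49, 0.49 and 0.46 for CDKN1B; and 0.91, 0.89 and 0.71 for CDKN2C. For list genes they were 0.059, 0.059 and 0.056 for CCNA2, 0.40, 0.36 and 0.13 for CDKN1C, 0.40, 0.39 and 0.34 for FOXM1, and 0.70, 0.69 and 0.54 for LIN37. CKS1B had 0.032, 0.036 and 0.035, SKP1 0.088, 0.090 and 0.088, and RBX1 0.29, 0.30 and 0.29.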

Other observations

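Genes that overlap the members on the opposite strand had fold changes of their own. TSPAN31, a tetraspanin gene whose end overlaps that of CDK4 by 517 bases, had 42.2 and 42.8 CPM in the LNCaP-labelled libraries and 23.4 and 24.0 in the C4-2-labelled ones, a log2 fold change of -0.85 ± 0.052 (adjusted p = 1.68e-06), while CDK4 rose. LPAR6, a receptor gene inside the span of RB1, had 5.38 and 4.92 CPM against 4.26 and 4.798 and did not pass (-0.18 ± 0.110, adjusted p = 0.153). AKTIP, which overlaps the end of RBL2 by 369 bases, had 94.0 and 90.3 CPM against 85.4 and 87.7 and did not pass either (-0.09 ± 0.042, adjusted p = 0.0814). These 3 genes were chosen for their position after the values of the members were seen.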
